A study of Mus musculus with 24 samples.

Results

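The genes examined were 10 components of the circadian clock, Arntl, Clock, Per1, Per2, Per3, Cry1, Cry2, Ciart, Nr1d1 and Dbp. They were chosen by symbol and found among the 36605 genes of the table by their Ensembl identifiers. RNA of the hippocampus was sequenced from 24 adult mice, 3 females and 3 males of each of 4 genotypes. Egr1wtNesCre- mice were the wild type, and Egr1wtNesCre+ mice carried the Nestin-Cre transgene without a floxed Egr1 allele. Egr1fNesCre- mice, labelled FF (-), carried the floxed Egr1 allele without Cre, and Egr1fNesCre+ mice, labelled FF (+), carried both and are the conditional knockout, Egr1cKO. Egr1 is an activity-regulated transcription factor. Nestin-Cre is driven by the promoter and enhancer of Nestin, which act in neural precursors, so that recombination reaches neurons and most glia from development onward. No gene was deleted in the other genotypes. The question put to the clock genes was whether they differed between the genotypes, and whether the tissues were alike in clock phase. The mice were housed in a light and dark cycle. The hour at which each hippocampus was taken is not given in the sources used here.

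The mammalian clock is a loop of transcription. ARNTL (also called BMAL1) and CLOCK bind E-boxes as a pair and drive the Per, Cry, Ciart, Nr1d1 and Dbp genes. PER, CRY and CIART proteins repress that pair, and NR1D1 (REV-ERB alpha) represses Arntl through ROR elements, so that in tissues with a running clock Arntl peaks roughly opposite to Dbp, Nr1d1 and the Per genes. Per1 is also induced directly, by neuronal activity and by glucocorticoids.

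Promoter windows of 250 bases before to 50 bases after the RefSeq start (GRCm38.p6) were given for 9 of the 10 genes. They were searched on both strands for the E-box CACGTG, the D-box TTANGTAA, which DBP and its relatives bind, and the ROR element TAGGTCA. The E-box was in a window of Ciart, Cry1 and Per1, of 8.09% of all 27025 genes with windows, and in 7.15% of their 32851 windows. The D-box was in the window of Per3, of 2.72% of these genes, and in 2.32% of all windows. The ROR element was in a window of Arntl, of 2.97% of these genes, and in 2.61% of all windows. Per1 and Arntl each had a further window, at another start, that held none of these motifs. The matched stretches are shown because they hold the elements through which the clock proteins named above are known to act, with the motif in capitals and each sequence read 5′ to 3′ on the gene's strand. The Ciart stretch holds 3 E-boxes, which start 116, 58 and 44 bases before the start, and lies at chr3:95882253-95882358 on the minus strand.
Ciart: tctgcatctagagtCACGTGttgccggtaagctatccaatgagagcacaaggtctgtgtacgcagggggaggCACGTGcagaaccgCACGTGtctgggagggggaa
The Cry1 E-box starts 60 bases before the start, at chr10:85185095-85185128 on the minus strand.
Cry1: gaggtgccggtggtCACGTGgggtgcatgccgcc
The Per1 E-box starts 166 bases before the start, at chr11:69098769-69098802 on the plus strand.
Per1: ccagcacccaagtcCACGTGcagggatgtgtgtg
The 2 D-boxes of Per3 start 205 and 158 bases before the start, at chr4:151044802-151044884 on the minus strand.
Per3: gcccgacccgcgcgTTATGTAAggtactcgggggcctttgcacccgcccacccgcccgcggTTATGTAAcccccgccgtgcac
The ROR element of Arntl starts 30 bases after the start, within its first exon, at chr7:113207530-113207558 on the plus strand.
Arntl: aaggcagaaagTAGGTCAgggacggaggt
A match to these letters is a description of the sequence and was not tested as a binding site.

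Total counts ran from 18025168 to 34955004 per mouse. Levels are given as CPM, counts scaled to a common library size with the TMM factors of edgeR. Egr1, the targeted gene, was between 4.86 and 10.2 CPM in the 6 Egr1cKO mice and between 47.7 and 149 CPM in the other 18, so that it was low in every mouse labelled as Egr1cKO and in no other. The labels name the cell type as endocrine, but the 6 pituitary markers found summed to 0.899 to 3.84 CPM per mouse against 660 to 1453 CPM for 8 hippocampal markers. The 8 markers of the suprachiasmatic nucleus and hypothalamus summed to 10.6 to 26.3 CPM. In 5 mice Ttr, the leading choroid plexus gene, was at 290 to 1907 CPM, against at most 45.4 CPM in the other 19. These were male Egr1fNesCre- replicates 2 and 3, male Egr1cKO replicate 2, male Egr1wtNesCre+ replicate 3 and female Egr1wtNesCre+ replicate 1. Mouse numbers in the labels fall in separate ranges for Egr1wt and Egr1f mice, so a difference between these alleles and a difference between the series of mice cannot be told apart. Within each range the mice with Cre form a run of numbers with no mouse without Cre among them. The part of this order in the comparisons of Cre was not tested. In RNA of whole tissue, fewer cells that express a gene and less of its RNA per cell cannot be told apart either.

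All 10 genes were expressed above the filter on low counts. Counts ranged from 124 for Ciart in the lowest mouse to 5140 for Cry2 in the highest. Per kilobase of exon, the mean levels over 24 mice were highest for Nr1d1 at 26.1 CPM per kb, Cry2 at 20.6, Per1 at 18.8 and Dbp at 16.7 CPM per kb. A middle group held Per2 at 8.73, Clock at 8.08, Per3 at 7.23 and Ciart at 5.44 CPM per kb. Cry1 at 3.73 ± 0.456 (SD, n = 24) and Arntl at 3.72 ± 0.442 CPM per kb were the lowest, and these 2 did not differ beyond their spread. The libraries were not stranded, so that reads from shared exonic bases could not be assigned to one strand. This touches Nr1d1, whose exons overlap those of the more abundant Thra on the opposite strand, Dbp, which overlaps Sphk2, and to a small extent Cry2 and Arntl, which overlap little-expressed antisense genes. Per1, Per2 and Cry1 overlap no other gene.

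**Figure D1:**
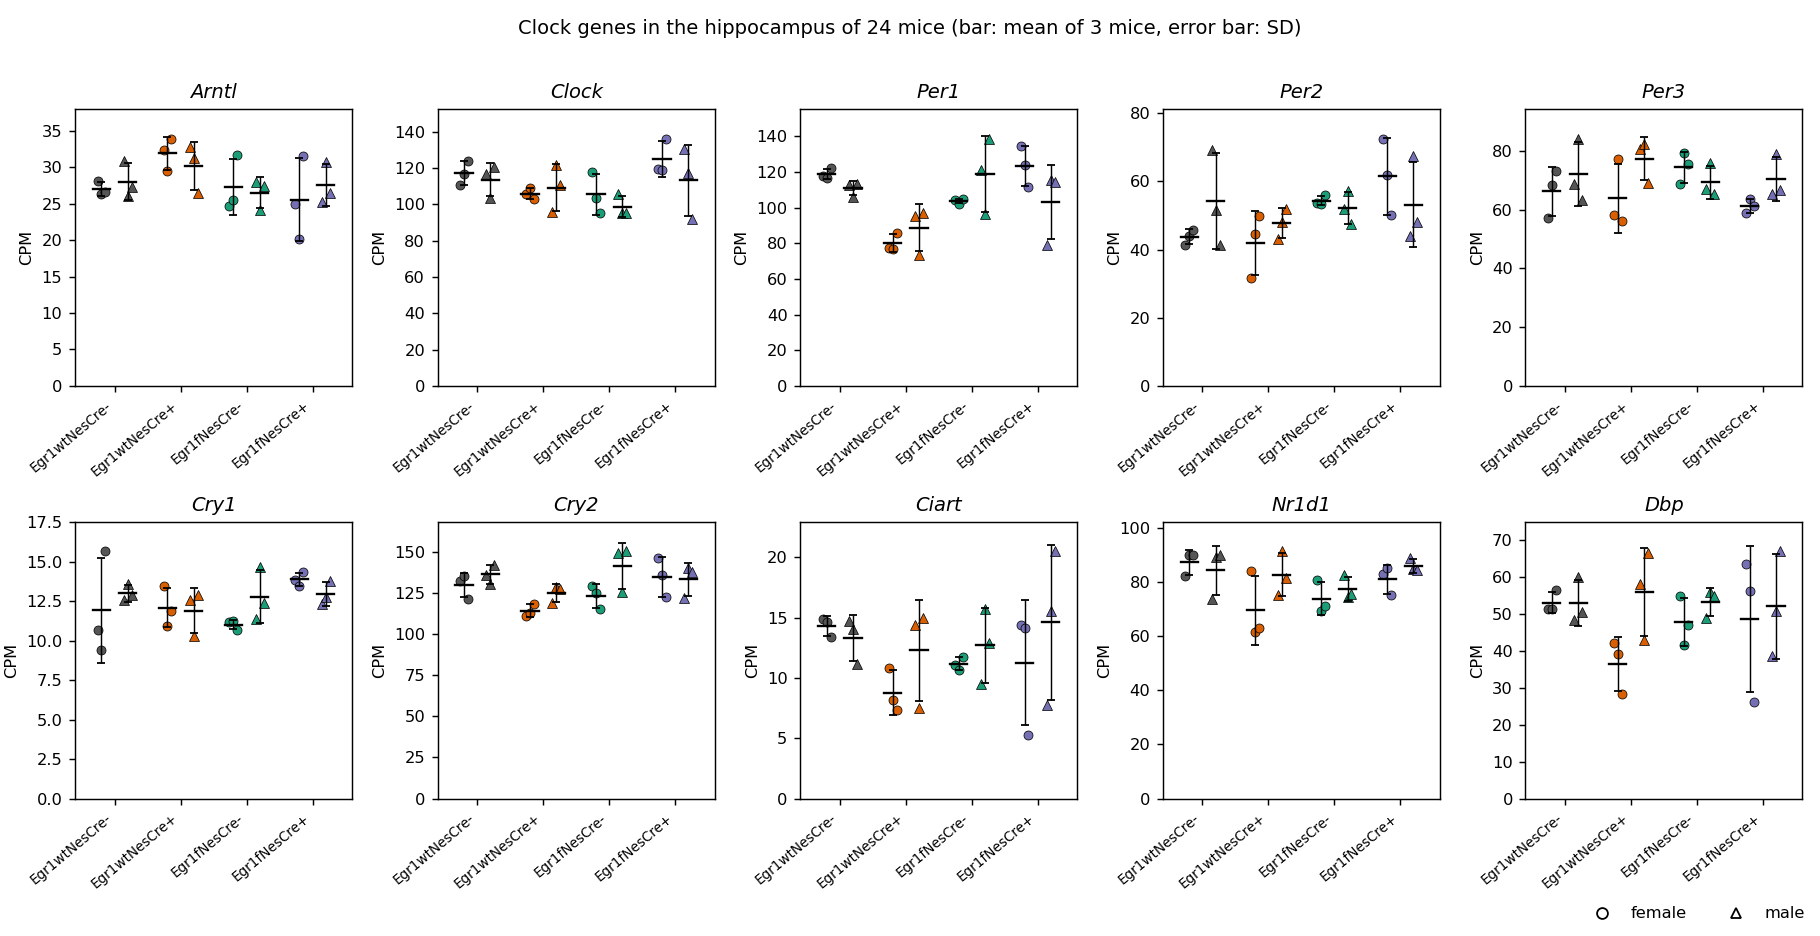
Level of each clock gene in CPM (y axis, from 0) in each of 24 mice, by genotype (x axis) and sex (circles female, triangles male). Horizontal bars are means of 3 mice and error bars are SD. Per1 lies between 73.6 and 97.2 CPM in the 6 Egr1wtNesCre+ mice and between 106 and 122 CPM in the 6 wild-type mice.

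The activator pair differed little between mice. Arntl ranged from 20.2 to 33.9 CPM, a 1.68-fold range, with a median of 27.4 CPM. In wild-type mice Arntl was at 26.0, 26.9 and 30.8 CPM (lowest, median and highest of 6), in Egr1wtNesCre+ at 26.5, 31.8 and 33.9 CPM, in Egr1fNesCre- at 24.1, 26.5 and 31.6 CPM and in Egr1cKO at 20.2, 25.9 and 31.5 CPM. The 4 ranges overlapped, and the lowest value of all was that of an Egr1cKO mouse. Clock, the partner of ARNTL, ranged from 91.8 to 136 CPM, a 1.48-fold range. Its median was 117 CPM in wild-type, 107 CPM in Egr1wtNesCre+, 99.4 CPM in Egr1fNesCre- and 119 CPM in Egr1cKO mice, with both ends of the Egr1cKO mice, 91.8 and 136 CPM, outside the range of every other genotype.

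Of the repressors, Per1 showed the clearest separation. It was at 106, 115 and 122 CPM (lowest, median and highest of 6) in wild-type mice and at 73.6, 81.5 and 97.2 CPM in Egr1wtNesCre+ mice. These 2 groups did not overlap. In Egr1fNesCre- mice Per1 was at 96.3, 105 and 139 CPM, and in Egr1cKO mice at 79.1, 115 and 135 CPM. Per2 ranged 2.29-fold, from 31.6 CPM in female Egr1wtNesCre+ replicate 1 to 72.5 CPM in female Egr1cKO replicate 1. Per3, which is not required for the rhythm itself, ranged 1.50-fold, from 56.3 to 84.2 CPM, and every pair of genotypes overlapped. Cry1 ranged from 9.41 to 15.7 CPM and both of these values were in female wild-type mice. Cry2 had the narrowest range of the 10 genes, 1.35-fold from 111 to 151 CPM.

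Ciart, the small repressor also called CHRONO, had the widest range, 3.90-fold from 5.26 to 20.5 CPM. Both ends were Egr1cKO mice, female replicate 3 and male replicate 3. Dbp, an output transcription factor that binds D-boxes, ranged 2.56-fold from 26.1 to 66.8 CPM, and its ends were the same mice. The 6 wild-type mice were the most even for both genes, at 11.2 to 14.9 CPM for Ciart and 48.3 to 60.0 CPM for Dbp. Nr1d1 ranged 1.49-fold, from 61.4 to 91.3 CPM, both in Egr1wtNesCre+ mice.

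The comparison of Egr1cKO with its floxed control, Egr1fNesCre-, gave no called clock gene. A call needed an adjusted p of at most 0.05 in edgeR's quasi-likelihood test and a fold change of at least 1.2, and 0.0232% of 17265 genes passed it. Clock was at 119 ± 15.2 CPM (SD, n = 6) in Egr1cKO and 102 ± 8.92 CPM in Egr1fNesCre- mice, with a log2 fold change of 0.22 ± 0.08 (SE, edgeR adjusted p = 0.256). Nr1d1 was at 83.5 ± 4.59 and 75.6 ± 5.16 CPM, with a log2 fold change of 0.14 ± 0.06 (edgeR adjusted p = 0.278). These 2 of 10 genes had an unadjusted p under 0.05, as did 16.2% of all genes tested. For Dbp the difference was 0.00 ± 0.17 and the interval of 2 SE on each side ran from -0.34 to 0.34 log2 units. The values do not exclude a change of either sign within those bounds, and a change beyond them need not have been called. The corresponding interval was -0.20 to 0.25 for Per1 and -0.23 to 0.19 for Arntl. The log2 fold changes of the other 5 genes ran from -0.13 for Per3 to 0.18 for Cry1, with Per2, Cry2 and Ciart between them.

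Egr1cKO was also compared with the Cre control, Egr1wtNesCre+. None of the 10 genes was called, against 0.00585% of 17080 genes. Per1 was at 113 ± 18.7 CPM in Egr1cKO and 84.4 ± 10.1 CPM in Egr1wtNesCre+ mice, with a log2 fold change of 0.42 ± 0.11 (SE, n = 6 in each group, edgeR adjusted p = 0.354). Per2 had a log2 fold change of 0.35 ± 0.14 (edgeR adjusted p = 0.358), Cry2 of 0.17 ± 0.07 (edgeR adjusted p = 0.367) and Arntl of -0.23 ± 0.11 (edgeR adjusted p = 0.406). These 4 had an unadjusted p under 0.05, against 12.3% of all genes. The log2 fold changes of the other 6 ran from -0.10 for Per3 to 0.30 for Ciart. The Egr1cKO mice enter this comparison and the one before, and the 6 others enter the next as well, so the values of these comparisons are not independent. Against all 18 other mice, none of the 10 genes was called in Egr1cKO, where 0.00543% of genes were, and Per2 had a log2 difference of 0.23 ± 0.11 (edgeR adjusted p = 0.301). The other 9 genes ran from -0.10 for Arntl to 0.15 for Cry1 on the log2 scale.

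The Cre transgene alone was examined by setting Egr1wtNesCre+ against wild-type mice. No gene of the 17167 tested by edgeR was called, 0% of the genes, while 1038 had an unadjusted p under 0.05 and DESeq2 called 20. Per1 had a mean of 84.4 ± 10.1 CPM against 115 ± 5.38 CPM (SD, n = 6 in each group), a log2 fold change of -0.44 ± 0.07 (SE) and an adjusted p of 0.188 by edgeR. DESeq2 gave -0.45 ± 0.08 with an adjusted p of 0.000205, and Per1 was the 1 clock gene among its calls. These were 0.14% of the 14310 genes to which DESeq2 gave an adjusted p. All 6 Egr1wtNesCre+ mice lay below all 6 wild-type mice for Per1, as was the case for 0.137% of 19742 genes. The call in edgeR turned on male Egr1wtNesCre+ replicate 2, which had the lowest Per1 of all mice at 73.6 CPM, since without it the adjusted p was 0.0177 with a log2 fold change of -0.41, in a fit that called 229 genes, 1.31% of those tested. Of the other clock genes, Ciart (log2 fold change -0.40 ± 0.17), Cry2 (-0.15 ± 0.05) and Arntl (0.18 ± 0.08) had an unadjusted p under 0.05, each with an edgeR adjusted p of 0.754. That makes 4 of 10, where 6.05% of all genes did. The other 6 had log2 fold changes from -0.22 for Dbp to 0.03 for Per3. The median log2 difference of the 10 genes was -0.14 and that of all genes 0.01. Choroid plexus markers differed between the same groups, with summed levels of 53.9 to 2046 CPM in Egr1wtNesCre+ and 34.0 to 44.7 CPM in wild-type mice, which did not overlap. Of the 5 of 7 markers tested, 4 had a positive log2 fold change with an unadjusted p under 0.05 and none was called, and the median of the 5 was 1.99. Without the 5 mice with over 100 CPM of Ttr, the log2 fold change of Per1 was -0.47 (edgeR adjusted p = 0.0771), where 0.0113% of genes were called. The part of the markers in the result was otherwise not tested.

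Egr1fNesCre- mice, whose Egr1 is floxed but not deleted, were compared with wild-type mice. No gene of 17393 was called by edgeR, 0% of those tested, where 1683 had an unadjusted p under 0.05. DESeq2 called 2, 0.00583% of the genes to which it gave an adjusted p and none of them a clock gene. Nr1d1 had a log2 fold change of -0.18 ± 0.06 and Clock of -0.18 ± 0.06 (SE, n = 6 in each group, edgeR adjusted p = 0.515 for both). These 2 were the clock genes with an unadjusted p under 0.05, against 9.68% of all genes. Both had their lowest genotype mean in Egr1fNesCre- mice. The log2 fold changes of the other 8 ran from -0.22 for Ciart to 0.13 for Per2. Of the choroid plexus markers, 4 of 5 tested had a positive log2 fold change with an unadjusted p under 0.05 here too, with summed levels of 33.9 to 1042 CPM in Egr1fNesCre- mice, and their part in the result was not tested.

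**Figure D2:**
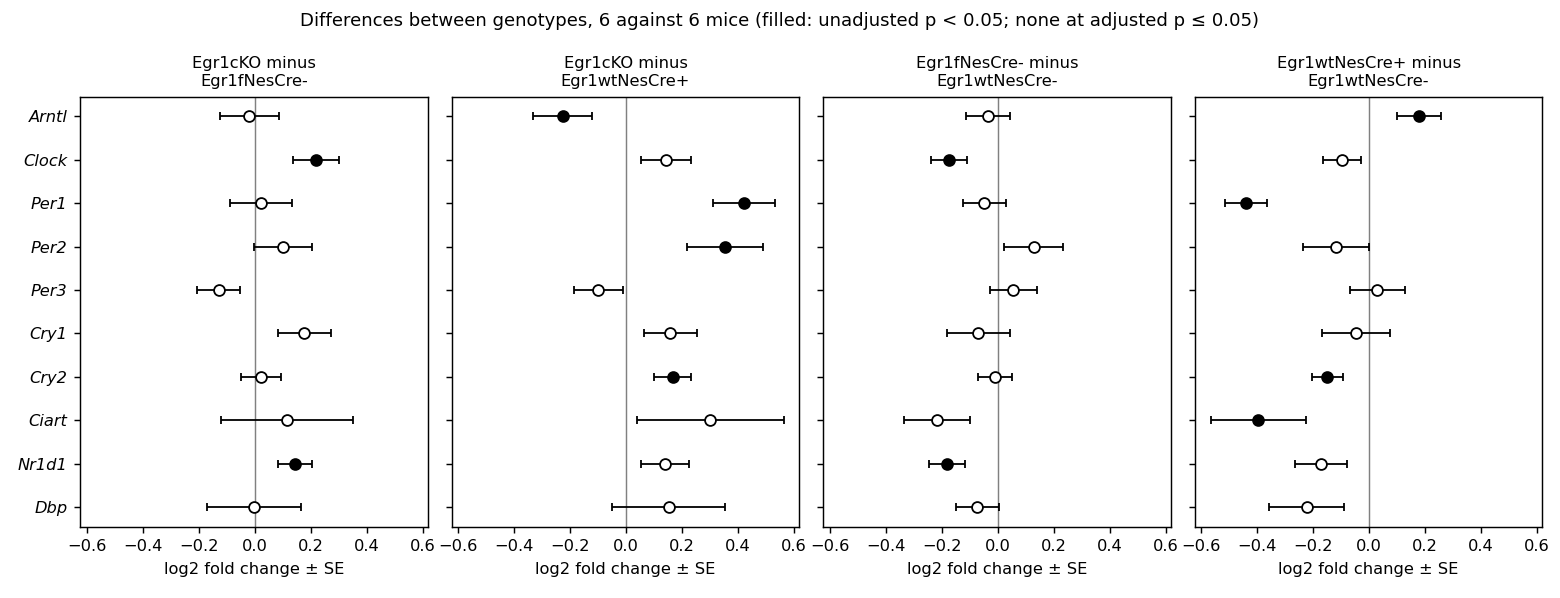
Log2 fold change (x axis) of each clock gene (y axis) in 4 comparisons of 6 against 6 mice, with bars of 1 SE. Filled points have an unadjusted p under 0.05, and no point passed an adjusted p of 0.05 in edgeR. Per1 is at -0.44 in Egr1wtNesCre+ minus wild type and at 0.42 in Egr1cKO minus Egr1wtNesCre+.

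With all 24 mice in 1 model with sex, no clock gene was called for the floxed allele (0.00507% of 19742 genes called), for Cre (0.0456%), for sex (0.0658%) or for any difference among the 4 genotypes (0.0253%). For Per1 the average of the Cre effect was -0.21 ± 0.07 and that of the floxed allele 0.19 ± 0.07 on the log2 scale (SE, edgeR adjusted p = 0.997 and 0.886). Per2 had 0.24 ± 0.09 for the floxed allele (edgeR adjusted p = 0.886). The other log2 differences ran from -0.13 for Arntl to 0.08 for Cry2 for the floxed allele, from -0.15 for Ciart to 0.08 for Arntl for Cre, and from -0.23 for Ciart to 0.06 for Clock for female minus male. The interaction asks whether the effect of Cre in Egr1f mice differed from that in Egr1wt mice, and it too gave no called clock gene, where 0.00507% of genes were called. The difference of differences was 0.47 ± 0.14 for Per1 (edgeR adjusted p = 0.159), 0.32 ± 0.11 for Clock and 0.32 ± 0.11 for Nr1d1 (edgeR adjusted p = 0.16 for both). These 3 had an unadjusted p under 0.05, where 18.4% of all genes did. The other 7 ran from -0.19 for Arntl to 0.52 for Ciart. Of the 7 choroid plexus markers, 6 had a negative difference of differences with an unadjusted p under 0.05, and their part was not tested. DESeq2 called all 3 clock genes, with adjusted p of 0.0438, 0.0481 and 0.0485, and 10.3% of the 3250 genes to which it gave an adjusted p. It gave none to Per2, Per3, Cry1, Ciart, Dbp and Arntl here, so these could not be called. Without male Egr1wtNesCre+ replicate 2, edgeR called Clock and Nr1d1 as well, with adjusted p of 0.0319 and 0.0313, but this fit called 1455 genes, 7.05% of those tested. For any difference among genotypes, Per1 had an edgeR adjusted p of 0.358, which was 0.0377 without male Egr1cKO replicate 1, where 0.0194% of genes were called. DESeq2 called Per1 (adjusted p = 0.0149) with 0.26% of the genes to which it gave an adjusted p. The edgeR adjusted p of the other 9 genes ran from 0.449 to 0.845. Male Egr1cKO replicate 1 had the lowest Per1 of its genotype, 79.1 CPM against 112 to 135 CPM in the other 5.

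Females and males were also compared apart, 3 against 3 mice. The test of whether the genotype differences differed by sex called no gene of 19742 with edgeR, 0%, with 725 at an unadjusted p under 0.05 and 8 called by DESeq2. None of the 10 clock genes had an unadjusted p under 0.05 in it, so that the values for each sex below are not shown to differ. In females, Per1 was at 77.2, 77.0 and 85.7 CPM in Egr1wtNesCre+ and at 118, 117 and 122 CPM in wild-type mice, a log2 fold change of -0.57 ± 0.08 (SE, edgeR adjusted p = 0.172). Dbp was at 42.1, 39.0 and 28.2 CPM against 51.3, 51.3 and 56.3 CPM (log2 fold change -0.53 ± 0.14), and Ciart at 10.9, 8.17 and 7.34 CPM against 14.9, 14.6 and 13.4 CPM (-0.69 ± 0.17, edgeR adjusted p = 0.587 for both). Arntl went the other way, at 32.3, 29.5 and 33.9 CPM against 28.2, 26.3 and 26.6 CPM (0.25 ± 0.10, edgeR adjusted p = 0.644). In each of these 4 genes the female groups did not overlap, nor did they for Clock and Cry2, which makes 6 of 10 where 13.8% of 19742 genes did not overlap. No gene was called by edgeR in this comparison, 0% of 17560, with 1309 at an unadjusted p under 0.05. DESeq2 called Per1 (adjusted p = 4.72e-05) and Dbp (adjusted p = 0.0491) among 57 genes, 0.63% of the 9052 genes to which it gave an adjusted p. It gave none to Ciart and Cry1 in this comparison, so these could not be called. The other 6 genes had log2 fold changes from -0.32 for Nr1d1 to 0.03 for Cry1.

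Leaving out 1 library changed the edgeR calls in the female comparison, and DESeq2 was not refit without it. The summed choroid plexus markers were 53.9 to 2046 CPM in female Egr1wtNesCre+ and 36.5 to 44.7 CPM in female wild-type mice, which did not overlap, and 5 of 6 tested had a positive log2 fold change with an unadjusted p under 0.05 (7.45% of all genes had such a p), with a median of 3.09. Female Egr1wtNesCre+ replicate 1 is the mouse with the most Ttr, 1907 CPM. Without it edgeR called Per1 (log2 fold change -0.55, adjusted p = 0.0287), Ciart (-0.89, adjusted p = 0.0467) and Nr1d1 (-0.49, adjusted p = 0.0471), 3 of 33 genes called, or 0.179% of those tested. The markers' part in the female values was not tested further. In males, Per1 was at 95.4, 73.6 and 97.2 CPM in Egr1wtNesCre+ and at 113, 106 and 113 CPM in wild-type mice, a log2 fold change of -0.33 ± 0.12 (edgeR adjusted p = 1). The male groups did not overlap for Per1 and Cry2, 2 of 10 genes where 6.6% of all genes did not. No gene was called by edgeR in these males, 0% of 17320, where 319 had an unadjusted p under 0.05 and DESeq2 called 0. Male Dbp was at 58.0, 42.8 and 66.4 CPM against 48.3, 60.0 and 50.4 CPM and overlapped. Genes other than Per1 ran on the log2 scale from -0.19 for Per2 to 0.10 for Arntl.

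In females Egr1cKO was compared with Egr1fNesCre-, where edgeR called 0.288% of 17359 genes and none of the 10. Per3 was at 59.0, 63.6 and 61.3 CPM against 68.8, 79.2 and 75.5 CPM (log2 fold change -0.29 ± 0.09, edgeR adjusted p = 0.122). Cry1 was at 13.9, 13.5 and 14.3 CPM against 11.2, 11.2 and 10.7 CPM (0.33 ± 0.13, edgeR adjusted p = 0.205). Per1 and Clock did not overlap either, at 4 of 10 genes where 21.0% of all genes did not overlap. Without female Egr1fNesCre- replicate 1 edgeR called Per3 (adjusted p = 0.0101) and Clock (adjusted p = 0.00916), in a fit that called 2896 genes, 16.1% of those tested. The log2 fold changes of the genes other than Per3 and Cry1 ran from -0.10 for Arntl to 0.25 for Per1 in the fit of all 6 mice. Of 12 activity-induced genes 7 had a positive log2 fold change with an unadjusted p under 0.05, where 18.4% of all genes had such a p, and Egr2 was called (1.48 ± 0.21, edgeR adjusted p = 0.0145). Ttr was called as well (1.04 ± 0.15, edgeR adjusted p = 0.014), 1 of 2 choroid plexus markers of 5 tested with a positive log2 fold change and an unadjusted p under 0.05, and the summed markers were 50.4 to 56.5 CPM in female Egr1cKO and 33.9 to 37.2 CPM in female Egr1fNesCre- mice. The part of these genes was not tested. Leaving out the same mouse in the comparison of female Egr1fNesCre- with wild type gave calls for Per2 (log2 fold change 0.32, adjusted p = 0.0486) and Nr1d1 (-0.32, adjusted p = 0.038), in a fit that called 1136 genes, 6.18% of those tested. With it, none of the 10 was called there and 0.0113% of genes were, and Per2 was at 53.8, 53.4 and 56.0 CPM against 41.5, 44.1 and 45.8 CPM (0.32 ± 0.09, edgeR adjusted p = 0.472). The other 9 ran from -0.36 for Ciart to 0.17 for Per3, with Per1 at -0.19 ± 0.08 (edgeR adjusted p = 0.535) and no overlap between the groups for Per1, Per2, Nr1d1 and Ciart, 4 of 10 where 12.8% of all genes did not overlap. In that comparison 10 of 12 activity-induced genes had a negative log2 fold change with an unadjusted p under 0.05, where 8.93% of all genes had such a p, and Npas4 was called (-1.02 ± 0.14, edgeR adjusted p = 0.0487). Of 11 glucocorticoid-responsive genes, 6 had such a p, all with a positive log2 fold change and none called. The part of both lists in this comparison was not tested. In males none of the 10 genes was called in Egr1cKO against Egr1fNesCre- (0.00569% of genes called) or in Egr1fNesCre- against wild type (0% of 17255 genes called by edgeR, 473 at an unadjusted p under 0.05, 3 called by DESeq2). All 10 log2 fold changes ran from -0.20 for Per1 to 0.22 for Ciart in the former and from -0.21 for Clock to 0.09 for Per1 in the latter, where 5 of 6 choroid plexus markers tested had a positive log2 fold change with an unadjusted p under 0.05.

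A wider list of 20 clock genes held paralogs of the activators, receptors that act on ROR elements, relatives of DBP, the BHLHE repressors, and kinases and ubiquitin ligases that set the life of PER and CRY. None of the 20 was called in any of the 17 comparisons. In Egr1cKO against Egr1fNesCre-, Rora, an activator at ROR elements, had a log2 fold change of 0.38 ± 0.12 (SE, edgeR adjusted p = 0.253) and Nfil3, a repressor at D-boxes, of -0.32 ± 0.17 (edgeR adjusted p = 0.351). In females the value for Rora was 0.49 ± 0.14 (edgeR adjusted p = 0.0997). In Egr1wtNesCre+ against wild type, the smallest p was that of Nr1d2, the paralog of Nr1d1, at a log2 fold change of -0.13 ± 0.08 (edgeR adjusted p = 0.754). The median log2 difference of the 20 genes in that comparison was -0.02, beside -0.14 for the 10 genes, and none of the 20 had an unadjusted p under 0.05.

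Whether the genes moved together from mouse to mouse was examined with 45 pairwise correlations of log2(CPM + 0.5) over the 24 mice, each with a two-sided permutation p. The pairs differ in genotype as well as in any clock phase, and share library and depth. After adjustment 2 pairs passed 0.05. Dbp and Ciart had a Pearson r of 0.88 (p = 1e-05, the smallest that 100000 permutations can give, adjusted p = 0.00045) and a Spearman rho of 0.76 (p = 4e-05, adjusted p = 0.0018). Without the 2 mice farthest from the median of Dbp, r was 0.805. It was 0.83 in the 12 Egr1wt mice, 0.915 in the 12 Egr1f mice, and 0.88 for deviations from the 8 group means. For those deviations a further pair had a permutation adjusted p under 0.05, Clock with Ciart at r = -0.71 (adjusted p = 0.00405). Over the 24 mice as they stand it was -0.44 (adjusted p = 0.15). Deviations were permuted as 24 free values after 8 group means were removed, so their p are too small and no pass is read from them. Clock with Ciart had an r of -0.04 in the 12 Egr1wt mice, -0.63 in the 12 Egr1f mice, -0.13 in females and -0.66 in males. Without the 2 mice farthest from the median of Clock it was -0.15. Per1 and Cry2 had an r of 0.74 (p = 5e-05, adjusted p = 0.00112) and a rho of 0.74 (p = 8e-05, adjusted p = 0.0018). Without the 2 mice farthest from the median of Per1 r was 0.78, and it was 0.66 within the Egr1wt mice (adjusted p = 0.237) and 0.77 within the Egr1f mice (adjusted p = 0.0621).

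Arntl and Dbp, which run in antiphase in a working clock, had an r of -0.51 (permutation p = 0.0114, adjusted p = 0.15) and a rho of -0.47 (p = 0.0221, adjusted p = 0.199). The pair did not pass after adjustment. Without the 2 mice farthest from the median of Arntl r was -0.42, and without the 2 farthest on Dbp -0.34. Within the Egr1wt mice it was -0.68, within the Egr1f mice -0.45, in females -0.705 and in males -0.18. Arntl was negatively correlated with 8 of the 9 other genes, from -0.13 for Clock to -0.51 for Dbp, and none of these passed after adjustment. The exception was Per3, at r = 0.02. Arntl had an r of -0.39 with Per1, -0.28 with Per2, -0.36 with Nr1d1 and -0.37 with Ciart. For deviations from the 8 group means, 6 of the 9 were negative, and the value for Per1 was then 0.15 and that for Dbp -0.55.

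**Figure D3:**
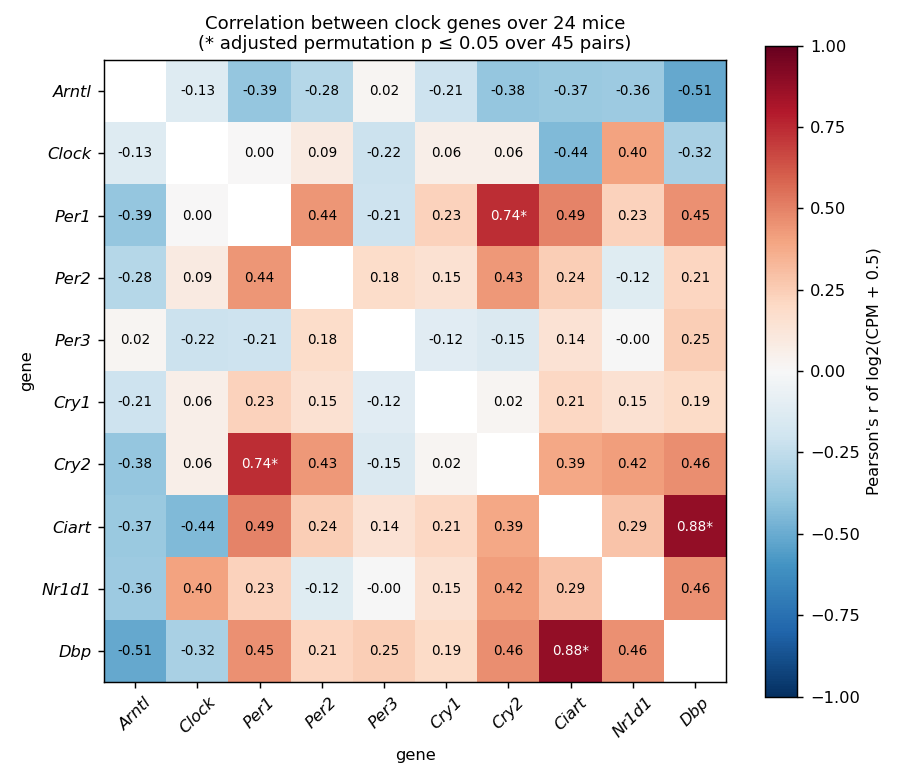
Pearson's r of log2(CPM + 0.5) over 24 mice for each pair of clock genes (rows and columns are genes, colour from -1 to 1). The pairs with an asterisk, Dbp with Ciart at 0.88 and Per1 with Cry2 at 0.74, are the 2 of 45 with an adjusted permutation p of at most 0.05.

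**Figure D4:**
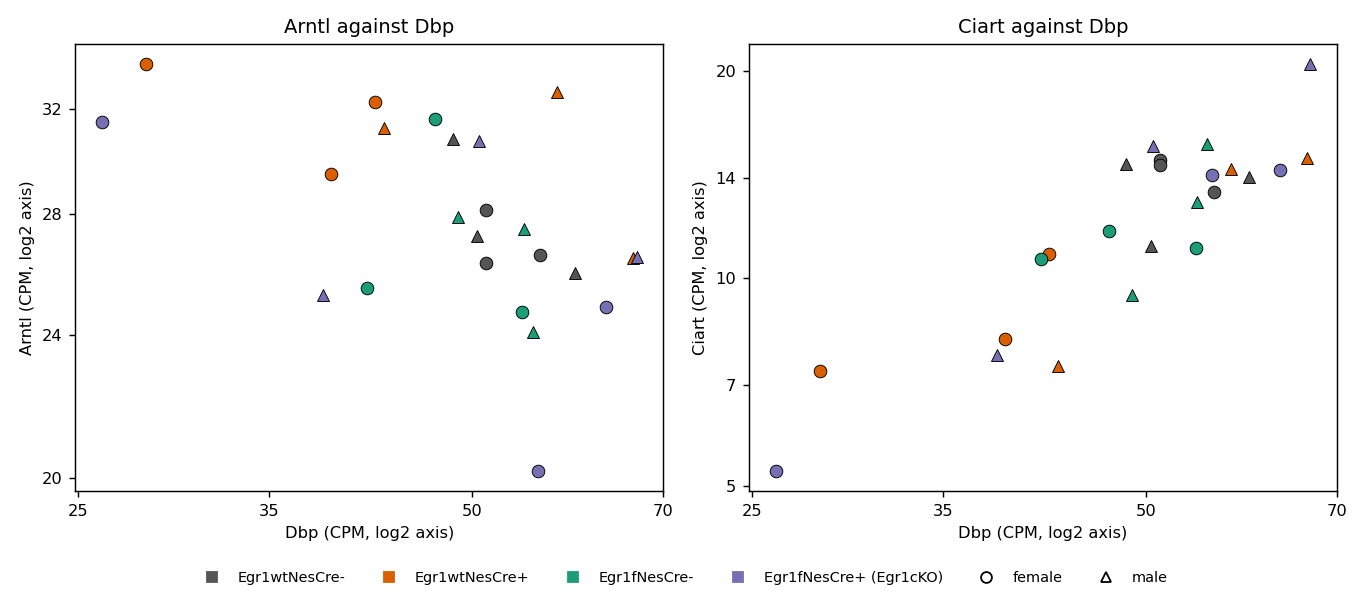
Arntl (left) and Ciart (right) against Dbp, in CPM on log2 axes, 1 point per mouse, coloured by genotype with circles for females and triangles for males. Dbp and Ciart were positively correlated (r = 0.88), and Arntl with Dbp negatively (r = -0.51, not past the threshold after adjustment).

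Among all 19742 genes, those most like Dbp over the 24 mice were Ciart at r = 0.88, Tspan4 at 0.69, Tmem116 at 0.69, Slc45a1 at 0.68 and Gorab at 0.67. Nr1d2 ranked 13 of all genes for likeness to Dbp (r = 0.64) and Usp2, a deubiquitinase under clock control, ranked 67 (r = 0.58), both named after their values were seen. Of the other E-box targets, Cry2 ranked 332, Nr1d1 353, Per1 378, Per3 2966, Per2 3699 and Cry1 4273. The relatives of Dbp, Hlf and Tef, ranked 10007 (r = 0.002) and 10671 (r = -0.02). The lowest r with Dbp were those of Fxr1 at -0.75, Hsp90b1 at -0.72 and Fbxl7 at -0.69. Nr1d2 was also close to the bottom for Arntl, at r = -0.59 and rank 19724. Among the genes most like Arntl were Gm43437 at 0.68, AC132910.1 at 0.67, Cox16 at 0.66 and Phf11c at 0.65, and the least like it Tspan4 at -0.70, Tatdn2 at -0.64 and Gm47863 at -0.64. Of these, AC132910.1, Cox16 and Phf11c were scarcely expressed, at means of 0.764, 0.392 and 0.799 CPM, and Gm47863 was at 1.67 CPM. These values describe 24 mice and were not tested.

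Per1 had different neighbours. The genes most like it were Sik1 at r = 0.85, Egr4 at 0.82, Tob2 at 0.81, Ddit4 at 0.79 and Tiparp at 0.79, of which Sik1 and Egr4 are known as immediate early genes and Ddit4 as a glucocorticoid-responsive gene. The lowest were the scarcely expressed Catsperg2 at -0.71, Nodal at -0.70 and Mir487b at -0.70. Cry2 ranked 7 for likeness to Per1, Ciart 217 and Dbp 368. In Egr1wtNesCre+ against wild type, 3 of 11 glucocorticoid-responsive genes had an unadjusted p under 0.05, where 6.05% of all genes did, all with a negative log2 fold change and none called, Sgk1 at -0.65 ± 0.15, Ddit4 at -0.39 ± 0.10 and Errfi1 at -0.32 ± 0.11 (SE, edgeR adjusted p = 0.495, 0.58 and 0.754). The median log2 difference of the 11 was -0.26 and their summed level ran from 466 to 689 CPM in Egr1wtNesCre+ and from 552 to 822 CPM in wild-type mice. Of 12 activity-induced genes, 1 had an unadjusted p under 0.05, close to the share of all genes, Egr4 at -0.44 ± 0.16 (edgeR adjusted p = 0.754), and the median of the 12 was -0.25. Their summed level was 291 to 819 CPM in Egr1wtNesCre+ and 368 to 769 CPM in wild-type mice, with the highest in female Egr1wtNesCre+ replicate 1. In females of this comparison, 3 of 11 glucocorticoid-responsive and 3 of 12 activity-induced genes had an unadjusted p under 0.05, all negative, where 7.45% of all genes did. In males it was 4 of 11, all negative, and 0 of 12, where 319 of 17320 genes did. In Egr1cKO against Egr1wtNesCre+ it was 3 of 10 and 3 of 12, all positive, where 12.3% of all genes did. None of these was called. The part of both lists in the Per1 values was not tested.

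To compare the mice for clock phase, an index was formed per mouse as log2 Arntl minus the mean log2 level of Dbp, Nr1d1, Ciart, Per1, Per2 and Per3. A higher index means more Arntl for the level of genes that peak opposite to it. Over the 24 mice it ran from -1.47 to -0.18, with a mean of -0.86 ± 0.31 (SD). The wild-type mice spanned -1.13 to -0.83 with a mean of -0.95, and the Egr1fNesCre- mice -1.17 to -0.68 with a mean of -0.94. The Egr1wtNesCre+ mice spanned -1.05 to -0.18 with a mean of -0.55, and 5 of these 6 lay above all wild-type mice. In females the 3 Egr1wtNesCre+ mice were at -0.38, -0.50 and -0.18 and the 3 wild-type mice at -0.85, -1.02 and -1.04. The Egr1cKO mice had a mean of -0.98 and the widest spread, -1.47 to -0.32.

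Within the female Egr1cKO group the index was -1.24, -1.47 and -0.32. Replicates 1 and 2 were the lowest of all 24 mice and replicate 3 the second highest. Replicate 3 had the least Dbp (26.1 CPM) and Ciart (5.26 CPM) of all mice and 31.5 CPM of Arntl, while replicate 2 had the least Arntl, 20.2 CPM. These 3 mice share sex and genotype. Since the index is built from the genes whose differences are described above, it was given no test, and it could not be set against the hour of collection.

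**Figure D5:**
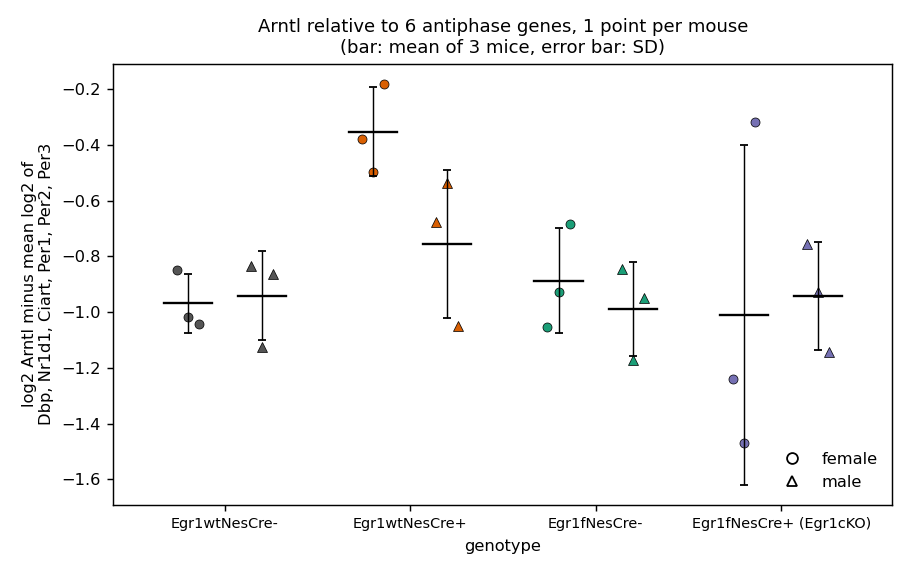
Log2 Arntl minus the mean log2 level of Dbp, Nr1d1, Ciart, Per1, Per2 and Per3 (y axis) for each mouse, by genotype (x axis) and sex (circles female, triangles male), with the mean and SD of 3 mice. Female Egr1wtNesCre+ mice lie between -0.50 and -0.18, and the female Egr1cKO mice are spread from -1.47 to -0.32.

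The spread within groups was compared with that of other genes. The SD of log2(CPM + 0.5) within the 8 groups had a median of 0.17 over the 10 clock genes and of 0.24 over 19742 genes. The 19742 genes include scarcely expressed ones and were not matched to the clock genes in level. The part of level in this difference was not tested. Ciart was at 0.45, above 92.5% of all genes, and Dbp at 0.34, above 71.0% of them. Cry2 was at 0.10, above 6.94% of genes, and Nr1d1 at 0.13, above 19.98%. Ciart, Dbp and Per2 (0.24) were the 3 clock genes at or above the median of all genes in their spread between mice of the same sex and genotype, and Nr1d1, which overlaps Thra, had an SD below the median of all genes.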

How the data were processed

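Hippocampal RNA of 24 mice was measured, and sex, genotype and replicate number came from the labels. The authors trimmed reads with Trim Galore, mapped them to mm10 (GRCm38) with STAR and deposited whole-number counts per gene, not normalized. The submitters' processing notes give Trim Galore 3.8.2 and STAR 2.7.9, which are not the versions of the study's methods. The annotation used for counting is not given in the sources used here. Symbols, positions and exonic lengths came from GENCODE M21, which named 36493 of 36605 genes. Libraries were non-stranded. All 24 columns were used.

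Counts were tested with edgeR 4.0.16 (TMM, genes kept by filterByExpr at a minimum count of 10, quasi-likelihood F test, Benjamini-Hochberg over all genes kept) in R 4.3.3. The floxed allele, Cre, their interaction and sex came from 1 model of 24 mice, and pairs of genotypes from models of those mice. Calls needed an adjusted p of at most 0.05 and, between pairs of groups and in Egr1cKO against the rest, a fold of 1.2. DESeq2 1.42.0, other size factors, no filter, a replicate block, models without sex, wider models and each mouse left out were alternatives. Leaving out the 5 mice with over 100 CPM of Ttr and splitting correlations by sex were added after seeing the data. Scripts were tested on simulated counts. CPM were TMM-scaled, with 0.5 added before log2. Fold changes of edgeR and intervals of 2 SE cover the spread between mice. The labels do not say that replicates come from separate litters, and p-values measure the spread between these mice only. The 10 genes and the lists were chosen with earlier results of these data known. All 10 genes were tested in every comparison and are given by value or within a range, with Egr1 as a check. The wider list had no called gene, and its genes with the smallest p are given for some of the comparisons only. The genes most like Arntl, Dbp and Per1 are the 5 highest and 3 lowest by r, of which 1 for Arntl is not reported here. Promoter sequences are from RefSeq on GRCm38.p6.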

Additional observations from a re-analysis of the deposited data

Results flagged for a closer look

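A mouse was looked at again where its gap to the nearest of the 6 mice of its genotype took up more than 0.625 of the genotype's range on the log2 scale. Of 44 sets of 6 values (10 genes and the index in 4 genotypes) 2 met this, and chance gives about 1 in 20. Per1 was at 79.1 CPM in male Egr1cKO replicate 1, below the other 5 Egr1cKO mice at 112 to 135 CPM, with a gap of 0.649 of the range. Ciart was at 11.2 CPM in male wild-type replicate 3, below the other 5 wild-type mice at 13.4 to 14.9 CPM, with a gap of 0.628 of the range.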

How the results depend on the processing

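No clock gene was called by edgeR in any of the 17 comparisons. Without the filter on low counts, 1 was called for the floxed allele, 1 for Cre, 1 for the interaction and 2 for any genotype difference. That setting also called 2 for Egr1cKO against Egr1wtNesCre+, 1 for Egr1wtNesCre+ against wild type and 3 for the latter in females. The share of all genes called without the filter is not given for each comparison. These counts are therefore not read as a result about the clock genes. DESeq2 called 3 for the interaction, 1 for any genotype difference, 1 for Egr1wtNesCre+ against wild type and 2 in its females. Leaving out the 5 mice with over 100 CPM of Ttr was done with edgeR and gave 3 in those females. Of the 5, female Egr1wtNesCre+ replicate 1 alone enters that comparison, so this is the fit that leaves out that mouse. With each mouse left out, the calls ran from 0 to 2 for the interaction, 0 to 1 for any genotype difference, 0 to 1 for Egr1wtNesCre+ against wild type, 0 to 3 in its females, 0 to 2 for female Egr1cKO against Egr1fNesCre- and 0 to 2 for female Egr1fNesCre- against wild type, and were 0 in the other comparisons. Over all genes, edgeR called 0 to 50 per comparison, DESeq2 0 to 738 and edgeR without the filter 7 to 1189. With each mouse left out, edgeR called 1 to 1455 genes for the interaction, 3 to 6 for any genotype difference, 0 to 229 for Egr1wtNesCre+ against wild type, 0 to 33 in its females, 2 to 2896 for female Egr1cKO against Egr1fNesCre- and 0 to 1136 for female Egr1fNesCre- against wild type. The cause of these shifts was not tested. Of 40 values with an unadjusted p under 0.05, 17 were called in at least 1 alternative and 0 changed direction, and of 113 other differences 47 changed sign in some alternative. The adjusted p of Per1 in Egr1wtNesCre+ against wild type ran from 0.0177 to 0.467 with each mouse left out. Correlated pairs went from 2 to 1 in the Egr1wt mice, to 1 in the Egr1f mice and to 1 without the 5 Ttr mice. They went to 3 for deviations from the group means (with Clock and Ciart), where the p are too small, as said above. In males they went to 3 (with Cry1 and Ciart, r = 0.773, which was -0.166 in females). With each mouse left out they ran from 2 to 4, the 4 without female Egr1cKO replicate 3. The range of the index was 1.29 on the log2 scale and 1.11 with 5 CPM added. The median spread within groups was 0.168 and ran from 0.163 to 0.174 with each mouse left out.

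Replicate numbers did not pair the mice, since deviations of mice with the same number in different groups had a mean correlation of -0.00234 and 15 of 84 pairs were over 0.1. With the replicate block 0 clock genes were called in each comparison, and it changed no call among them, while the genes called in female Egr1cKO against Egr1fNesCre- went from 50 to 4. Depth limits Ciart, Cry1 and Arntl most, which had 124 to 960 counts per mouse.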
